A study of Homo sapiens with 6 samples.

Results

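The APOBEC3 cytidine deaminases are a family of 7 genes in humans, APOBEC3A, APOBEC3B, APOBEC3C, APOBEC3D, APOBEC3F, APOBEC3G and APOBEC3H, and their rows were taken by symbol from a table of 61517 genes. All 7 were found. RNA had been sequenced after oligo-dT selection in 6 libraries of THP-1, a human monocytic leukaemia cell line. Per the series' design text, the cells of both groups were differentiated into macrophages and given lipopolysaccharide (LPS) and ATP to induce pyroptosis, a lytic inflammatory cell death. In 3 libraries, called ruxolitinib here, the cells had also received a drug that the sample titles abbreviate RUX, that the treatment field and the design text spell Lukotinib and that the series title gives as ruxolitinib, an inhibitor of the kinases JAK1 and JAK2. The other 3 libraries, called control, had no such drug but the same LPS and ATP, and cells without stimulation were not analysed here. The drug's dose, the times of exposure and how differentiation was induced were not stated in those labels. Both groups are of 1 cell line, and the labels do not tell whether replicates were grown as separate cultures. The p-values therefore reflect the spread among these 6 libraries alone, and that spread may be technical.

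APOBEC3 enzymes remove the amino group of cytosine in single-stranded DNA and so turn it into uracil. Packaged into virus particles, some members mutate the complementary DNA that a retrovirus makes during reverse transcription. HIV counters such members with its protein Vif, which recruits a host ubiquitin ligase to degrade them. Several members are known as interferon-induced genes in myeloid cells, where type I interferon signals through the kinases JAK1 and TYK2 and the transcription factors STAT2 and IRF9.

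The members lie side by side on the plus strand of chromosome 22, between 38952741 and 39104067 on GRCh38 (GENCODE 29), a span of 151 kb. In order they are APOBEC3A (38952741 to 38992778), APOBEC3B (38982347 to 38992804), APOBEC3C (39014083 to 39020352), APOBEC3D (39021113 to 39033276), APOBEC3F (39040604 to 39053910), APOBEC3G (39077005 to 39087743) and APOBEC3H (39097224 to 39104067). The longest coding sequence of each gene was searched for the zinc-binding motif. The motif occurred once in APOBEC3A, APOBEC3C and APOBEC3H, and at 2 places in APOBEC3B, APOBEC3D, APOBEC3F and APOBEC3G. In the latter genes the first place is in exon 3 and the second in exon 6. The search does not tell which places are catalytically active. The stretches below, from GENCODE 29 transcripts, are shown because they code for the catalytic sites and because some are identical between members, which bears on how reads can be assigned. They run 5′ to 3′ from the codon of the first zinc-binding residue to that of the last, and capitals mark the codons of the histidine, the catalytic glutamate and both cysteines.
APOBEC3G second motif: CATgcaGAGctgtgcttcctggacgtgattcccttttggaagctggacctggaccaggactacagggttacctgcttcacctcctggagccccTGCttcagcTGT
APOBEC3F second motif: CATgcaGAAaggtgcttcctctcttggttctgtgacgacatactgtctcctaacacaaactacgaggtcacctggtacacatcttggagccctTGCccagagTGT
APOBEC3D second motif: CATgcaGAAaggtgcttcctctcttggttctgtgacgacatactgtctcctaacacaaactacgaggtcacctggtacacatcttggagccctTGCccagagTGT
APOBEC3C motif: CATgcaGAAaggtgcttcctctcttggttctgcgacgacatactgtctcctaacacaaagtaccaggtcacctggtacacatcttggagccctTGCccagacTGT
APOBEC3B second motif: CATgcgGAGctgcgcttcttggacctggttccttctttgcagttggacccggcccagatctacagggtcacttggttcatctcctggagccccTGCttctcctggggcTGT
APOBEC3A motif: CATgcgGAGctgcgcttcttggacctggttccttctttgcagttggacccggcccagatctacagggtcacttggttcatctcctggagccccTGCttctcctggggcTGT
Their places are chr22:39086312-39086416 (APOBEC3G), chr22:39052095-39052199 (APOBEC3F), chr22:39031715-39031819 (APOBEC3D), chr22:39017787-39017891 (APOBEC3C), chr22:38991365-38991475 (APOBEC3B) and chr22:38961420-38961530 (APOBEC3A), all within a coding exon.

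The stretches of APOBEC3D and APOBEC3F were identical over 105 bases, as were those of APOBEC3A and APOBEC3B over 111 bases and the first motifs of APOBEC3B and APOBEC3F over 105 bases. That of APOBEC3C differed from those of APOBEC3D and APOBEC3F at 4 bases. Over whole transcripts, the share of windows of 100 bases that also occur in another member was 25.1% for APOBEC3B, 18.4% for APOBEC3A, 13.3% for APOBEC3F, 8.73% for APOBEC3D, 5.05% for APOBEC3G, and 0% for APOBEC3C and APOBEC3H. With windows of 50 bases the shares were 37.8%, 24.5%, 20.8%, 14.8%, 7.06%, 1.14% and 0% in the same order. Of the 435 shared windows of 100 bases in APOBEC3F, 280 occur in APOBEC3G, its main partner and the most abundant member here. The exons of APOBEC3A and APOBEC3B also overlap in this annotation, and 23.3% of the exon bases of APOBEC3B lie in exons of another row whose symbol holds APOBEC3. Neither read length nor strand setting nor the treatment of reads that match several genes is stated in the labels, so counts of APOBEC3A and APOBEC3B are uncertain, and those of APOBEC3D and APOBEC3F to a smaller extent. How far reads of APOBEC3G enter the count of APOBEC3F was not tested. The rows of APOBEC3B-AS1 and of the pseudogene APOBEC3AP1 held 0 counts in all 6 libraries.

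Library totals ran from 17757595 to 24533979 counts. A count of 0 allows a level of up to 0.120 to 0.169 counts per 1000000 (CPM) per library, taking 3 counts as the limit, and this covers counting error only. Of the 8 macrophage and monocyte markers fixed for this line, CD14, CD68, CSF1R, ITGAM, LYZ, SPI1 and CD163 were present. MRC1 was close to absent, with 1, 12 and 5 counts in the control libraries and 8, 2 and 5 in the treated ones. It had too few counts to be tested. The 8 markers together gave 1028 to 1067 CPM in control and 510 to 567 CPM with ruxolitinib. Of the 7 tested, 6 were lower and LYZ passed as higher (log2 fold change 0.20, adjusted p = 0.0362 by edgeR). Of all 14051 tested genes, 16.1% passed as lower and 13.6% as higher. The LYZ call was lost with the batch as a block (adjusted p = 0.101) and without each library except ruxolitinib replicate 3, and it held in 6 of 18 alternatives (adjusted p from 0.0176 to 0.284). In bulk samples, fewer cells of a type and less RNA per cell cannot be told apart, and the part of this shift in the results below was not tested. The 4 T cell markers had at most 1 count in any library, with CD3D, CD3E and CD3G at 0 throughout. The 4 epithelial markers summed to at most 0.279 CPM, the 4 B cell markers to at most 1.69 CPM and the 4 fibroblast markers to at most 3.79 CPM in any library.

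APOBEC3G, the member best known for restricting HIV that lacks Vif, was the most abundant member in every library, and it fell with ruxolitinib. It stood at 31.8, 31.5 and 33.8 CPM in control replicates 1 to 3 and at 17.0, 17.4 and 16.8 CPM in ruxolitinib replicates 1 to 3. The groups were far apart next to their spread, and the lowest control library was well above the highest treated one. The means were 32.4 ± 1.21 and 17.0 ± 0.311 CPM (SD, n = 3 each), which left 52.6% of the control level. That is a change of -0.93 ± 0.07 on the log2 scale (SE, adjusted p = 9.45e-07, n = 3 in each group, by edgeR's quasi-likelihood test with Benjamini-Hochberg adjustment over 14051 genes). All 3 pairs of libraries sharing a batch number were lower with the drug, by -0.91, -0.86 and -1.01 on the log2 CPM scale.

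APOBEC3F, a partner of APOBEC3G in restricting HIV with a different preference for the base before the target cytosine, also fell, with much lower counts. It had 35, 53 and 58 counts in control and 14, 19 and 17 counts with ruxolitinib, or 1.97, 2.11 and 2.52 against 0.735, 1.02 and 0.913 CPM. The groups did not overlap, and each control library was above all treated ones. The means were 2.20 ± 0.285 and 0.889 ± 0.143 CPM (SD, n = 3 each), or 40.4% of control. On the log2 scale the change was -1.31 ± 0.25 (SE, adjusted p = 0.00176 by edgeR, n = 3 in each group). Within batches 1, 2 and 3 the log2 ratios were -1.42, -1.05 and -1.46.

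**Figure D1:**
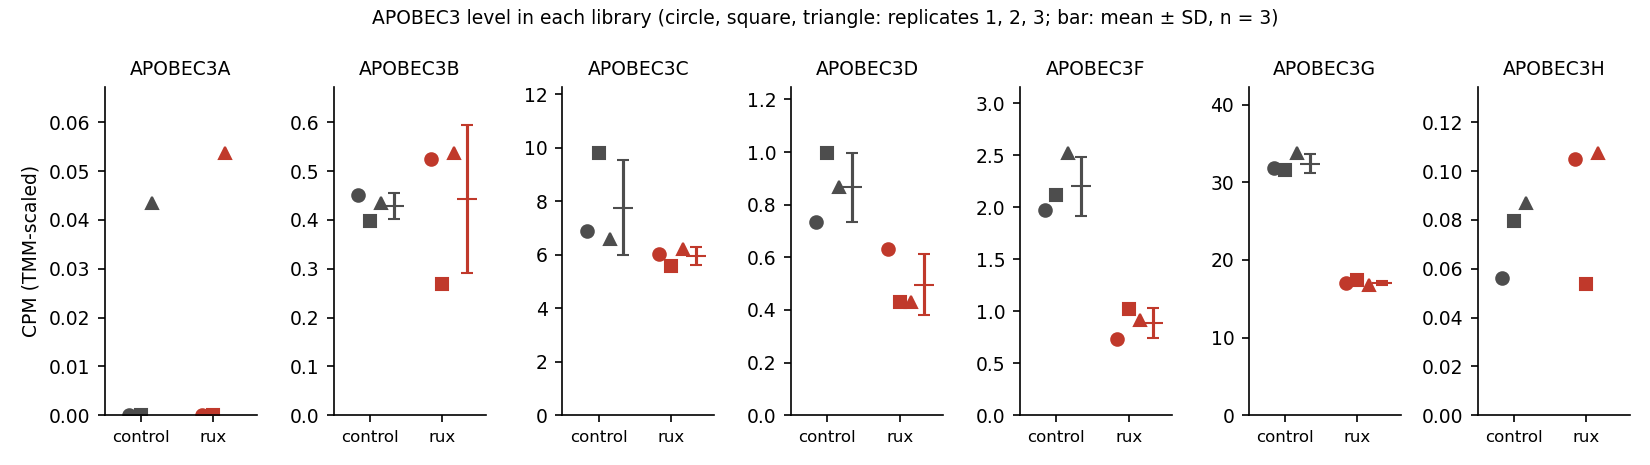
Level of each APOBEC3 gene in CPM on TMM-scaled totals (vertical axes, each from 0), with control in grey and ruxolitinib in red. Circles, squares and triangles are replicates 1, 2 and 3, and bars give the mean ± SD over 3 libraries, left out for APOBEC3A and APOBEC3H, which have 0 to 2 counts per library. APOBEC3G and APOBEC3F sit lower in all ruxolitinib libraries, and the highest APOBEC3C library is control replicate 2 at 9.80 CPM.

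APOBEC3C, a member with a single catalytic motif and weak activity against HIV, was second in abundance and did not pass the threshold. It had 6.87, 9.80 and 6.60 CPM in control and 6.04, 5.57 and 6.23 CPM with ruxolitinib. The treated libraries were all below the controls, but control replicate 2 stood well above the other 2, which were close to the treated range. The means were 7.76 ± 1.77 and 5.95 ± 0.337 CPM, a change of -0.39 ± 0.16 on the log2 scale (SE, adjusted p = 0.0893 by edgeR, n = 3 in each group). Leaving out control replicate 2 gave -0.18 ± 0.14 (adjusted p = 0.344), and leaving out the whole of batch 2 gave -0.13 ± 0.15 (adjusted p = 0.541). With no filter on low counts the gene did pass (-0.39 ± 0.14, adjusted p = 0.0428). Over all 18 alternatives the adjusted p ran from 0.0428 to 0.541.

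APOBEC3D, a weaker antiviral member with a pair of zinc-binding motifs, did not pass either. The filter on low counts asks for a minimum of about 10 counts in at least 3 libraries. APOBEC3D met it through the 3 control libraries and ruxolitinib replicate 1. It had 13, 25 and 20 counts in control and 12, 8 and 8 with ruxolitinib, or 0.732, 0.996 and 0.869 against 0.630, 0.429 and 0.430 CPM. The groups did not overlap, although control replicate 1 and ruxolitinib replicate 1 lay close together. The change was -0.81 ± 0.34 on the log2 scale (SE, n = 3 in each group, adjusted p = 0.0932 by edgeR, and 0.0808 to 0.351 over 17 alternatives). Within batches 1, 2 and 3 its log2 ratio was -0.22, -1.22 and -1.02.

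APOBEC3B, the nuclear member whose activity leaves mutations in tumour genomes, was below the filter on low counts and was not part of the test. It had 8, 10 and 10 counts in control and 10, 5 and 10 with ruxolitinib, or 0.451, 0.398 and 0.434 against 0.525, 0.268 and 0.537 CPM. The treated libraries lay on both sides of the controls. Over the summed counts, 28 in control and 25 with ruxolitinib, the ratio was 1.04 with an exact 95% interval of 0.584 to 1.86, which covers counting error only. An exact two-sided permutation test of the CPM gave p = 1, where 3 against 3 libraries cannot go below 0.1. For comparison, the same calculation gave 0.526 (0.487 to 0.568) for APOBEC3G, just below the lower bound of the APOBEC3B interval. APOBEC3F gave 0.400 (0.284 to 0.556), also below that bound. APOBEC3C at 0.753 (0.655 to 0.866) and APOBEC3D at 0.565 (0.346 to 0.901) had intervals that overlapped that of APOBEC3B. All these intervals cover counting error only, and the differences of these genes from APOBEC3B were not tested over libraries.

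APOBEC3A, known as an interferon-induced deaminase of monocytes, was at or near 0 in both groups. A single count stood in control replicate 3 and another in ruxolitinib replicate 3, and the other 4 libraries had 0. APOBEC3H had 1, 2 and 2 counts in control and 2, 1 and 2 with ruxolitinib. Both genes lay under the 3-count limit in every library, so no fold change is given, and a difference was not detectable at this depth.

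Over the family, 2 of the 4 members that could be tested passed the threshold, both lower. Among all 14051 tested genes, 29.7% passed in either direction and 16.1% passed as lower. APOBEC3F was the single member lower by at least 1 on the log2 scale and past the threshold, a pair of conditions that 2.97% of tested genes met. The tested members' median log2 fold change was -0.87, against -0.01 for all tested genes. Ordered by log2 fold change from the lowest, APOBEC3F stood at percentile 1.77 of tested genes, APOBEC3G at 3.81, APOBEC3D at 5.0 and APOBEC3C at 15.3. All 4 tested members had groups that did not overlap, in the direction of less RNA with the drug, as 23.8% of tested genes did, and 44.2% of tested genes had groups that did not overlap, whatever the direction. These counts are of the members that met the filter, which APOBEC3D met mainly through the group where it was higher. APOBEC3A, APOBEC3B and APOBEC3H, which did not reach the test, all had overlapping groups.

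Whether members responded differently from each other was examined through ratios of 2 members within a library, over 6 pairs. APOBEC3C relative to APOBEC3G was higher in every treated library: the log2 ratio of CPM was -2.21, -1.69 and -2.35 in control and -1.49, -1.64 and -1.43 with ruxolitinib. APOBEC3F relative to APOBEC3G was lower in every treated library, going from -4.01, -3.90 and -3.74 to -4.53, -4.09 and -4.20. The ratio of APOBEC3C to APOBEC3F went from 1.80, 2.21 and 1.39 to 3.04, 2.45 and 2.77. These 3 ratios did not overlap between groups (exact two-sided permutation p = 0.1 each, adjusted p = 0.2 over the 6 pairs), and 0.1 is the smallest p that 3 against 3 libraries allow. On the log2 scale the last of them is the difference between the first and second, and so is not a separate observation. How often pairs of other tested genes separate in this way was not computed. The effect on these ratios of the sequence that APOBEC3F shares with APOBEC3G was not tested. The ratios of APOBEC3D to APOBEC3C, APOBEC3F and APOBEC3G overlapped between groups (exact permutation p = 0.2, 0.3 and 0.7).

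Levels of different members were compared only per length, as reads per kilobase of merged exon per 1000000 counts (RPKM). In control the order was APOBEC3G at 5.95 ± 0.223, APOBEC3C at 2.75 ± 0.630, APOBEC3F at 0.679 ± 0.0878, APOBEC3D at 0.342 ± 0.0522, APOBEC3B at 0.226 ± 0.0141 and APOBEC3H at 0.0594 ± 0.0128 RPKM (SD, n = 3), with APOBEC3A last. No library of one member reached the range of the next in that order. Reads that match several members could alter the places of APOBEC3A, APOBEC3B, APOBEC3D and APOBEC3F in it, which was not tested. With ruxolitinib, APOBEC3G stood at 3.13 ± 0.0572 and APOBEC3C at 2.11 ± 0.120 RPKM, still without overlap. Below them APOBEC3F (0.274 ± 0.0441), APOBEC3B (0.234 ± 0.0802) and APOBEC3D (0.196 ± 0.0459) had overlapping ranges as neighbours in the order, so their order was not resolved.

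**Figure D2:**
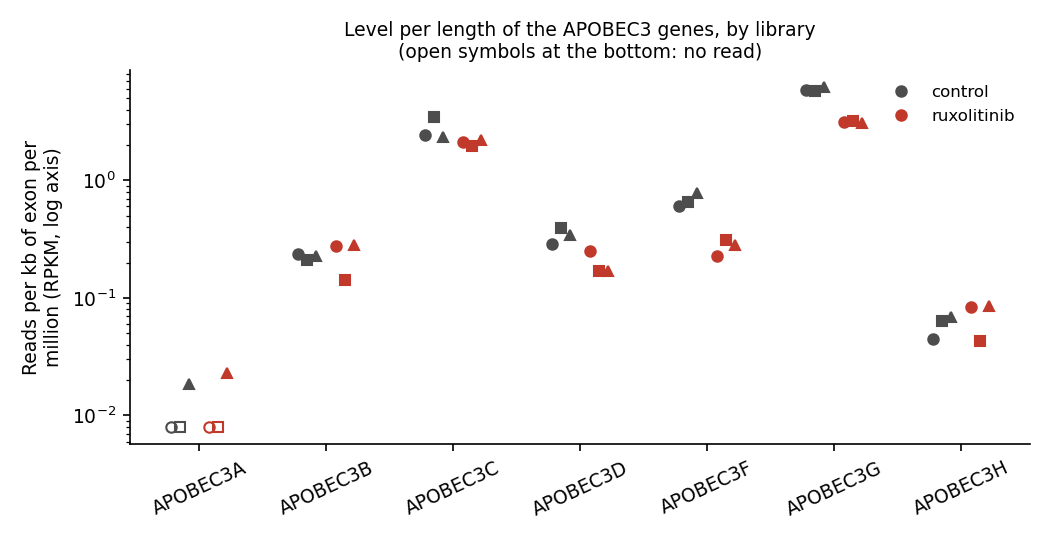
Level per length of each APOBEC3 gene in reads per kilobase of merged exon per 1000000 counts (RPKM, vertical log axis), with control in grey and ruxolitinib in red and circles, squares and triangles for replicates 1, 2 and 3. APOBEC3G and APOBEC3C lead in both groups, APOBEC3F, APOBEC3B and APOBEC3D come together with ruxolitinib, and open symbols mark libraries with no APOBEC3A read, drawn at an arbitrary low value.

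APOBEC3G made up 61.8%, 54.7% and 62.1% of the family's summed RPKM in control and 51.1%, 54.7% and 50.2% with ruxolitinib, while APOBEC3C made up 25.7%, 32.8% and 23.5% and then 35.1%, 33.9% and 36.03%. For APOBEC3G the share in ruxolitinib replicate 2 and in control replicate 2 differed little, whereas the other libraries separated. The lead of APOBEC3G depends on the length used, since its merged exons span 5.44 kb and its transcript with the longest coding sequence 1834 bases. Its mean RPKM was 2.16 times that of APOBEC3C in control over merged exons, and 6.41 times over that transcript, an alternative chosen after seeing the data. With ruxolitinib the ratios were 1.48 and 4.40. The order of the 7 members was the same under both lengths in each group.

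The fold changes were recomputed with each library, and each pair of libraries sharing a batch, left out. APOBEC3G kept a log2 fold change between -0.96 and -0.88 and APOBEC3F one between -1.45 and -1.18 over all 18 alternatives, and both stayed past the threshold in each, with adjusted p up to 0.000264 and 0.027.

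**Figure D3:**
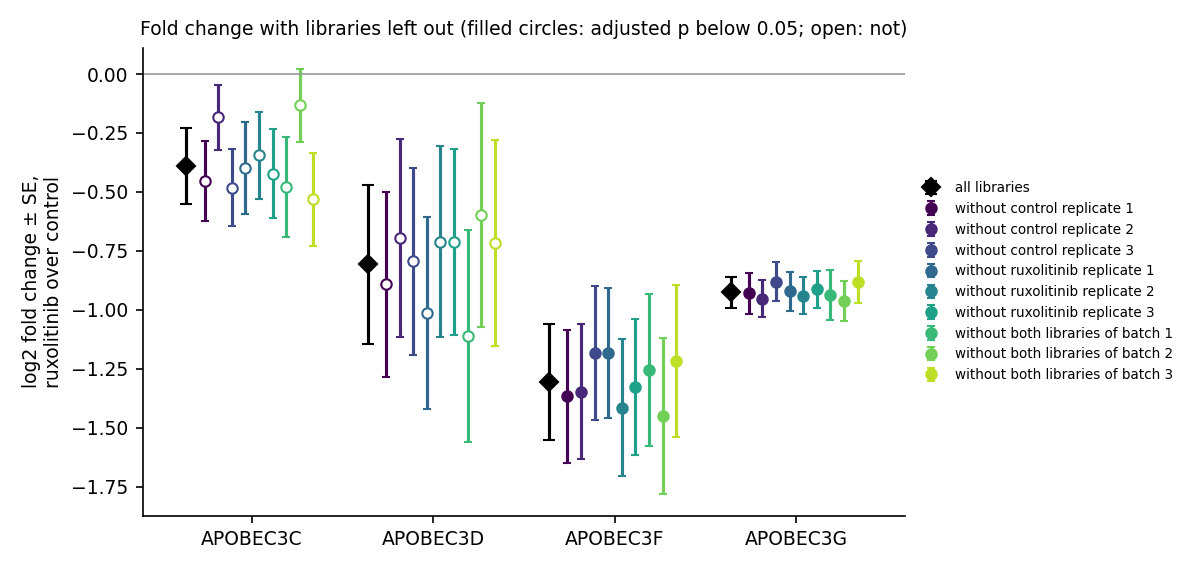
Log2 fold change with its standard error (vertical axis) for the 4 tested members, from all libraries (black diamonds) and with the named libraries left out (circles, filled where the adjusted p is below 0.05). APOBEC3G and APOBEC3F stay filled throughout, and APOBEC3C comes closest to 0 without control replicate 2 or both libraries of batch 2.

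APOBEC1, APOBEC2 and APOBEC4, relatives that share the same fold, were nearly silent. APOBEC2 had 4 counts in control and 1 with ruxolitinib, and APOBEC1 and APOBEC4 had 0. Among the deaminases that act on adenosine in double-stranded RNA, ADAR, whose long form is interferon-induced, fell from 486.9, 501.7 and 544.9 to 146, 144 and 146 CPM, a log2 fold change of -1.82 ± 0.05 (n = 3 per group, adjusted p = 7.7e-11 by edgeR). ADARB1 stood at 52.7 ± 4.12 and 51.9 ± 5.88 CPM (log2 fold change -0.025 ± 0.087, adjusted p = 0.86, n = 3 per group), and ADARB2 had 1 count in each group.

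Other host factors that restrict retroviruses or retroelements mostly fell. Of 14 tested, 11 were lower, SERINC3 was higher, and SLFN11 and PPHLN1 did not pass, with a median log2 fold change of -0.92 (8 to 11 lower and 0 to 2 higher over the alternatives), where 16.1% of all tested genes were lower. SERINC3 lost its call with the batch as a block (adjusted p = 0.0792), without control replicate 3 (0.0564) and without ruxolitinib replicate 1 (0.0737), within a range of 0.00507 to 0.174. SLFN11 passed as higher without control replicate 2 (adjusted p = 0.039, within 0.0178 to 0.499). MX2, which blocks nuclear entry of HIV, went from 146 ± 4.32 to 4.72 ± 0.721 CPM (log2 fold change -4.95 ± 0.08). IFI16, a sensor of DNA, went from 275 ± 13.8 to 18.2 ± 1.74 CPM (-3.91 ± 0.07). SAMHD1, which depletes the nucleotides needed for reverse transcription, fell from 149 ± 2.18 to 22.3 ± 1.85 CPM (-2.74 ± 0.06), and BST2, which tethers budding virus, from 506 ± 8.94 to 114 ± 0.669 CPM (-2.15 ± 0.04). These 4 had the smallest adjusted p of the list, while SERINC3, SLFN11 and PPHLN1 were named after their values were seen.

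**Figure D4:**
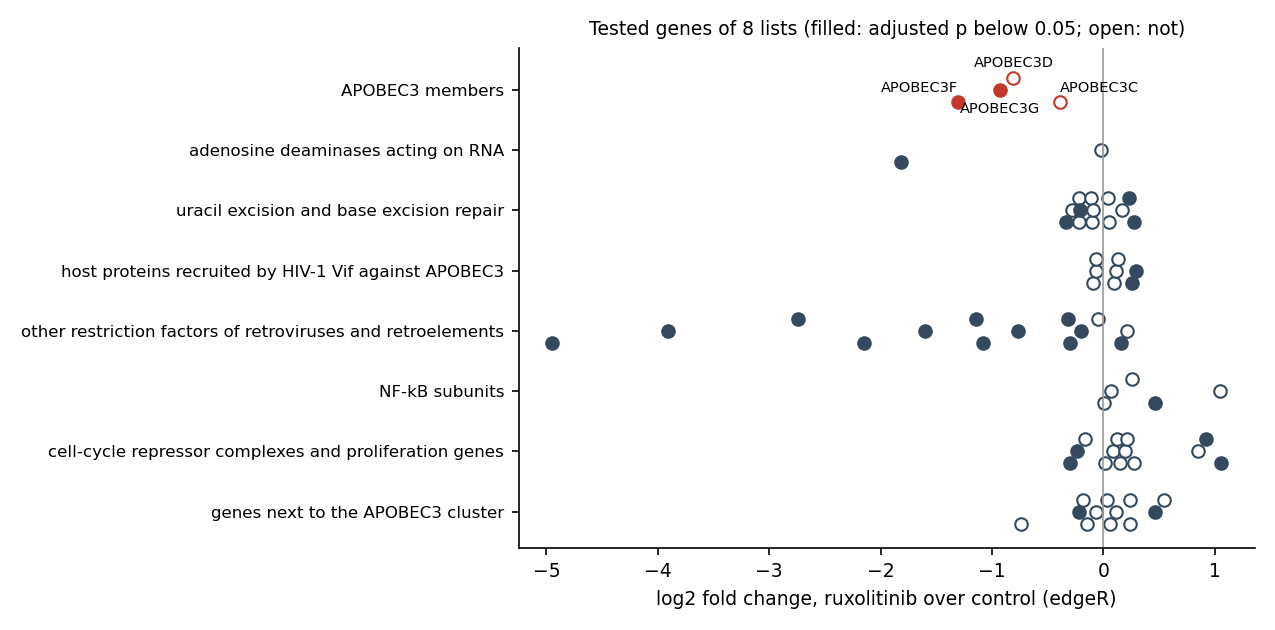
Log2 fold change of ruxolitinib over control (horizontal axis) for the tested genes of 8 lists (rows), with points shifted vertically only to separate them. Filled points have an adjusted p below 0.05, and the APOBEC3 members, in red, lie between -1.31 and -0.39, while MX2 is the leftmost point at -4.95.

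IRF9 and STAT2, which carry the type I interferon signal to DNA, fell. IRF9 went from 61.4 ± 0.223 to 12.6 ± 1.01 CPM, a change of -2.29 ± 0.07 on the log2 scale, and STAT2 from 127 ± 4.36 to 57.7 ± 7.27 CPM, a change of -1.14 ± 0.08 (n = 3 per group). Both were past the threshold in all 18 alternatives. Among 5 subunits of NF-kB, a factor activated by LPS that is known to drive APOBEC3B in other cells, NFKB1 rose from 88.3 ± 4.75 to 122 ± 4.11 CPM (0.46 ± 0.05) and the others did not pass. Among all tested genes 13.6% were higher, so 1 of 5 is not far from that share. NFKB2 stood at 32.8, 64.1 and 36.9 CPM in control and 90.6, 87.4 and 101 CPM with ruxolitinib (1.05 ± 0.29, adjusted p = 0.059 by edgeR). It passed without control replicate 2 (1.40, adjusted p = 1.37e-09) and in 4 of 18 alternatives, with adjusted p from 2.61e-19 to 0.297. RELB, REL and RELA had log2 fold changes of 0.26 ± 0.13, 0.07 ± 0.08 and 0.0026 ± 0.057, and RELB passed without control replicate 2 (0.38, adjusted p = 0.0248, 0.00112 to 0.882 over the alternatives).

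Genes that deal with the uracil left by deamination passed about as often as tested genes at large. Of 13 uracil excision and base excision repair genes, 2 were higher, 2 lower and 9 did not pass (median -0.11), while 13.6% of all tested genes were higher and 16.1% lower. TDG, a thymine and uracil glycosylase, rose by 0.28 ± 0.05 on the log2 scale and the repair scaffold gene XRCC1 fell by 0.33 ± 0.05 (n = 3 per group). UNG, the main uracil glycosylase, had 9.91 ± 0.178 and 11.1 ± 0.254 CPM (0.17 ± 0.09, adjusted p = 0.21 by edgeR), and was named outside the rule after its value was seen. The other calls, the mismatch repair gene MSH6 (higher) and the translesion synthesis gene REV1 (lower), were lost with the batch as a block (adjusted p = 0.0845 and 0.104, and 0.026 to 0.215 and 0.0198 to 0.199 over all alternatives). REV1 also lost its call without each of the 6 libraries in turn, and MSH6 without each except ruxolitinib replicate 3.

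Of 8 host proteins that Vif recruits or that its ubiquitin ligase needs, 2 were higher and 6 did not pass (median 0.10), where 13.6% of all tested genes were higher. ELOB, the elongin B adaptor, rose by 0.29 ± 0.06 and RNF7, the RING subunit, by 0.25 ± 0.05 on the log2 scale. CBFB, the cofactor that stabilises Vif, had 107 ± 4.14 and 115 ± 5.42 CPM (0.10 ± 0.05, adjusted p = 0.19 by edgeR, n = 3 per group). Of 13 tested cell-cycle genes, chosen because APOBEC3B is repressed with such genes in resting cells, 2 were higher, 2 lower and 9 did not pass (median 0.15), again close to the 13.6% higher and 16.1% lower among all tested genes. TOP2A, a topoisomerase of dividing cells, rose by 0.92 ± 0.13, and MYBL2, a subunit of the activating form of the complex, by 1.06 ± 0.30. MYBL2 had few counts, 8, 18 and 14 in control and 25, 25 and 21 with ruxolitinib. The proliferation genes MKI67 (0.20 ± 0.15, adjusted p = 0.354 by edgeR) and RRM2 (-0.17 ± 0.12, adjusted p = 0.329) did not pass. MYBL2 lost its call without control replicate 1 (adjusted p = 0.0674), ruxolitinib replicate 1 (0.0685) or ruxolitinib replicate 2 (0.0577), within a range of 0.014 to 0.173. The lower calls, LIN54 and RBL1, were both lost with the block (0.0711 and 0.124, within 0.00526 to 0.185 and 0.0309 to 0.366). RBL1 also lost its call without each library in turn, and LIN54 without control replicate 1 or 3 or ruxolitinib replicate 1 or 3.

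Of 12 flanking genes, all within 296 kb of the cluster, 1 was higher, 1 lower and 10 did not pass, with a median log2 fold change of 0.05, while 29.7% of all tested genes passed in either direction. The nearest listed gene on the APOBEC3H side, CBX7, a Polycomb gene 16.1 kb away, had 2.40 ± 0.403 and 3.54 ± 0.985 CPM (0.55 ± 0.22, adjusted p = 0.088 by edgeR, n = 3 per group). It passed without control replicate 2 (adjusted p = 0.0444, within 0.00603 to 0.497). The nearest listed gene on the APOBEC3A side, CBX6, 80.4 kb away, had 10.97 ± 2.42 and 9.93 ± 1.33 CPM (-0.15 ± 0.16, adjusted p = 0.54 by edgeR), and was named after its value was seen. RPL3, a ribosomal protein gene, rose by 0.46 ± 0.05. GTPBP1 fell by 0.22 ± 0.07 on the log2 scale, a call lost with the block (adjusted p = 0.0892) and when any single library other than control replicate 1 was left out, within 0.0178 to 0.134. With the whole of batch 2 left out, 4 flanking genes were higher and 0 lower.

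The genes whose pattern was most like each tested member were found among 7698 genes with at least 10 CPM on average, by the root mean square difference in log2 CPM over the 6 libraries, each gene centred on its own mean. This is a description with no test. APOBEC3G was closest to CTSO, a cathepsin gene (difference 0.017), followed by ZNFX1 (0.027) and NEK9 (0.042). APOBEC3F was closest to TMTC1 (0.12), TDRD7 (0.13) and IL7R (0.13), and APOBEC3D to GNB4 (0.13), APBB3 (0.14) and LHFPL2 (0.15). APOBEC3C was closest to IL4I1 (0.058), RASSF4 (0.063) and CTDSP1 (0.063).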

How the data were processed

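The values are raw counts per gene, as the authors deposited them in a single table. The genome build was hg38, per the submitters' processing notes; for the aligner and the counting program the sources used here give no name. Coordinates, exon lengths and transcripts came from GENCODE 29 on GRCh38, and RPKM used merged exon lengths. Of the 7 members, 1 (APOBEC3H) had an entry in the RefSeq promoter table, and no promoter is shown. Genes were tested with edgeR 4.0.16 in R 4.3.3 (glmQLFit and glmQLFTest, robust; TMM; filterByExpr with a minimum count of 10 and total of 15), with Benjamini-Hochberg adjustment over 14051 genes and a threshold of 0.05. The procedure was tested on simulated counts. CPM are over TMM-scaled totals, and SE come from the coefficient and its F statistic. Alternatives were the batch as a block, median-ratio and upper-quartile factors, library totals, DESeq2 1.42.0, no filter, limma-voom (limma 3.58.1), a floor of 1 CPM in 3 libraries, thinned counts, and each library and batch left out. The labels give each control and ruxolitinib library a shared batch number, which pairs them, and deviations of same-numbered libraries had correlations of -0.02, -0.19 and -0.11. The members and gene lists were chosen with earlier results of these data known. Named genes were all 7 members, up to 4 per list with the smallest adjusted p, IRF9, STAT2 and the NF-kB subunits, and the 3 nearest patterns per member. LYZ, SERINC3, SLFN11, PPHLN1, UNG, CBX6, MRC1, MKI67 and RRM2 were named after their values were seen. Some listed genes are not reported here.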

Additional observations from a re-analysis of the deposited data

How the results depend on the processing

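Of the 4 tested members, APOBEC3F and APOBEC3G passed and were lower under all 18 alternatives, with APOBEC3C and APOBEC3D lower in each they could enter. APOBEC3D had no value with at least 1 CPM in 3 libraries, which it did not reach. With no filter on low counts, APOBEC3C passed (log2 fold change -0.39, adjusted p = 0.0428). With the batch as a replicate block, 2915 genes passed against 4175, and 2 members as before. It ended no call of a member, and ended those of MSH6, REV1, LIN54, RBL1, GTPBP1, LYZ and SERINC3 among the named genes. With batch 1 left out entirely, 1983 genes passed (840 higher, 1143 lower); the cause was not tested. Leaving out single libraries gave 2941 to 4266 genes. The split between higher and lower was 1908 to 2267, but 2318 to 1957 with upper-quartile factors, 1578 to 2621 with library totals and 2553 to 2481 with batch 2 left out entirely (5034 genes, the most of any alternative). The log2 ratio of mean CPM for APOBEC3B was 0.051, 0.060 with APOBEC3A counts added, and -0.11 to 0.31 with single libraries left out. Genes that did not pass changed sign as follows. ADARB1 was 0.0100 with upper-quartile factors and 0.12 with batch 2 left out, and between -0.094 and 0.063 with 1 library left out (0.025 for control replicate 2). RELA was -0.033 with library totals, -0.026 and -0.0097 when batch 1 or batch 3 was left out, and from -0.020 to 0.023 with 1 library left out (-0.00078 for control replicate 3). CBX6 was 0.12 with batch 2 left out, and from -0.26 to 0.045 with 1 library left out. REL ran from -0.0012 to 0.16 with 1 library left out. Depth limits APOBEC3A, APOBEC3B and APOBEC3H, with 2, 53 and 10 counts in all.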
